A study of Homo sapiens with 9 samples.

Results

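The ATP-binding cassette (ABC) genes of the ABCA to ABCG families were followed in A2780 cells exposed to DIG-MSK, an analogue of the antitumour antibiotic mithramycin. The members were all genes with an official symbol of these families that a RefSeq protein-coding transcript on the array named. There were 44 of them, read by 63 of the 42405 gene probes on the array. These probes stood for 35010 genes in all, where a probe without a gene symbol was counted by its accession. They were set out by role: 10 genes for drug and organic anion efflux, 18 for the transport of lipids, sterols, retinoids and bile salts, 9 for organelles (mitochondria, peroxisomes and lysosomes), 3 soluble ATPases that act in translation and have no membrane domain, and 4 channel regulators and other ABCC genes. A2780 is an established human ovarian carcinoma line. Its cultures were left untreated or grown for 24 h with the drug at 8 nM or at 80 nM, in triplicate and as independent biological replicates per the study's methods, and each of the 9 RNA samples was hybridised to its own Agilent one-colour expression array. No vehicle control is named, and all results come from this 1 cell line.

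ABC transporters use the energy of ATP to move substrates across membranes. Some pump drugs and their conjugates out of the cell and are known for their part in the resistance of tumours to chemotherapy, while others hand cholesterol and phospholipids to acceptors outside the cell or serve mitochondria, peroxisomes and lysosomes. Mithramycin and its analogues bind GC-rich DNA, which is where the transcription factor Sp1 finds its sites.

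A level below is the log2 of a probe's background-corrected intensity minus the log2 of the 75th percentile of that array, so 0 is the level of a fairly bright probe and levels of different probes cannot be set against each other. A probe was used if it was well above background, by the scanner software's flag, on all 3 arrays of at least 1 group, and a gene was read by its brightest such probe. With the spots of a probe averaged, the lowest level that carried this flag lay between -6.18 and -5.68 on the 9 arrays. Of the 44 ABC genes 27 passed this filter and were tested, 24 of them above background on all 9 arrays. A gene is called up-regulated or down-regulated where its fold change was at least 1.5 or at most 0.67 with p under 0.05 in limma, which is the rule in the study's methods. The adjusted p-values are Benjamini-Hochberg values over all 21832 genes tested. The arrays of the untreated and 8 nM cultures shared a slide and those of the 80 nM cultures were on another, so at 80 nM the dose and the slide cannot be told apart. Of 7 marker genes of an epithelial or ovarian line, EPCAM, KRT8, KRT18 and VIM were above background on all 9 arrays, PAX8 on 1 array of each group, and WT1 and MUC16 on none. Of 8 marker genes of leukocytes, endothelium and fibroblasts 5 passed the filter and PECAM1 was above background on no array. Of those 5, PTPRC differed by -0.73 at 8 nM, a call with overlapping arrays and an adjusted p of 0.096. DCN differed by -1.39 at 80 nM (adjusted p = 0.0011), also called, while EPCAM was called at 0.90 at 8 nM and -0.93 at 80 nM. The part of these markers in the ABC results was not tested. In whole cultures such as these, fewer cells with a transcript and less transcript per cell cannot be told apart.

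Against untreated cells, 8 nM DIG-MSK up-regulated 3 of the 27 tested ABC genes, ABCA1, ABCC8 and ABCG4, and down-regulated 0. Across all genes tested 7.09% were called at this dose, 4.25% up and 2.84% down, so the 11.1% of the ABC genes called stands near the share of the array as a whole. With no limit on the fold, 5 ABC genes were higher and 3 lower in limma at unadjusted p under 0.05, beside 14.5% and 16.3% of all genes. At 80 nM, 3 were up-regulated (ABCA1, ABCG4 and ABCC2) and 4 down-regulated (ABCA3, ABCA5, ABCF1 and ABCG1), 25.9% of those tested beside 35.1% of all genes (18.8% up and 16.3% down). The filter kept ABCC2 only through the 80 nM arrays, where it stood highest, and ABCA5 and ABCG1 only through the arrays of the other groups, so their place in these counts is a description. Among the 24 genes above background on all 9 arrays, 2 were up-regulated and 2 down-regulated at 80 nM. All of these calls also had an adjusted p under 0.05, as did calls on 5.13% of all genes at 8 nM and 34.3% at 80 nM. The changes are plotted by role. Of the tested lipid transporters 5 of 9 were called at 80 nM, and of the organelle genes 0 of 8. Those 5 include ABCA5 and ABCG1, whose place is a description. At any fold and unadjusted p under 0.05 in limma, 4 of the 9 were higher and 4 lower. Of the 8 organelle genes 3 were higher and 3 lower, beside 35.8% and 27.6% of all genes. A difference between the roles was not tested. The median change of the 27 genes was 0.01 on the log2 scale at 8 nM and 0.02 at 80 nM, and that of all genes -0.06 and 0.08. Their median size of change, regardless of sign, was 0.17 at 8 nM and 0.43 at 80 nM, beside 0.19 and 0.42 for all genes.

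**Figure D1:**
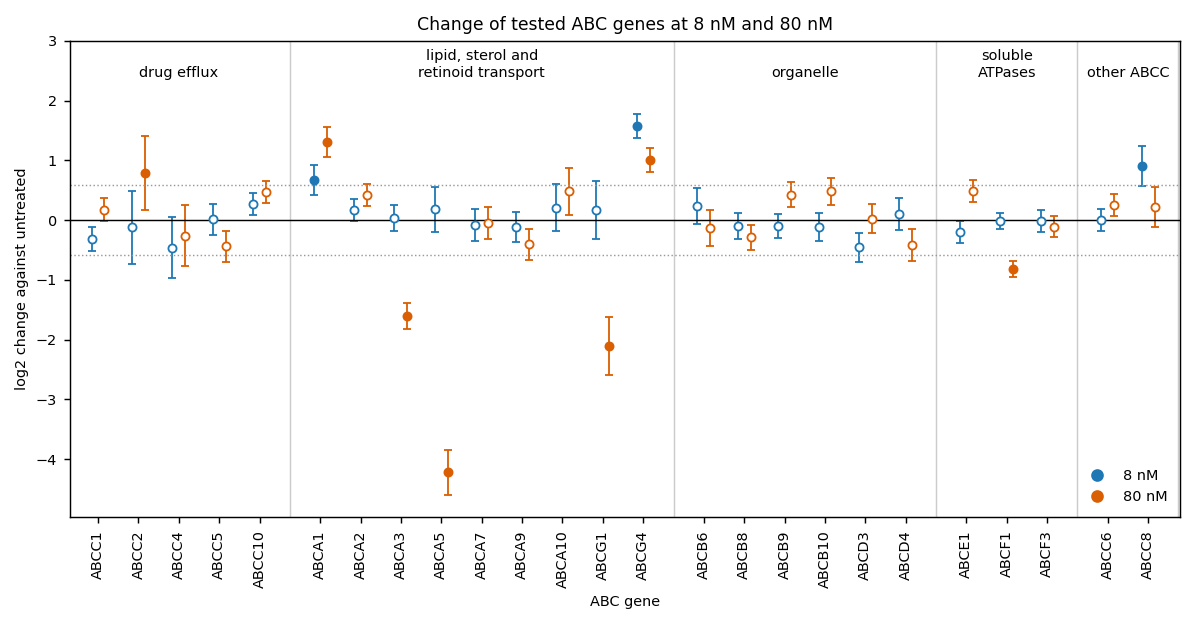
Log2 change against untreated cells (vertical axis) of 25 of the 27 tested ABC genes (horizontal axis, grouped by role), at 8 nM in blue and 80 nM in orange, 3 arrays per group. Points are limma estimates with 95% confidence intervals, filled where the gene was called, and the dotted lines are the fold limits of 1.5 and 0.67. ABCA5 at -4.22 and ABCG1 at -2.11 lie lowest at 80 nM, and both were below the background limit there. ABCG4 at 1.57 lies highest at 8 nM.

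Since drugs of this kind bind GC-rich DNA, the 250 bases before the start of transcription are shown for 3 ABC genes that fell at 80 nM (ABCA5, ABCA3 and ABCF1) and the 3 called up (ABCA1, ABCG4 and ABCC2). The windows are from RefSeq on GRCh38.p14, given 5′ to 3′ on the strand of the gene, and the capitals mark GGGCGG, the core of the GC box, read on either strand (CCGCCC is the same box on the other strand).
ABCA5, chr17:69327134-69327383, minus strand: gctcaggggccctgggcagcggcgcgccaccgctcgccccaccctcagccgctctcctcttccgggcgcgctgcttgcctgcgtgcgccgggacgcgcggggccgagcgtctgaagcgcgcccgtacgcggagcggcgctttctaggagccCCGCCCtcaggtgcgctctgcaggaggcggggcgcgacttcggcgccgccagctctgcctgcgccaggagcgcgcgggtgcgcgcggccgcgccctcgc
ABCA3, chr16:2340729-2340978, minus strand: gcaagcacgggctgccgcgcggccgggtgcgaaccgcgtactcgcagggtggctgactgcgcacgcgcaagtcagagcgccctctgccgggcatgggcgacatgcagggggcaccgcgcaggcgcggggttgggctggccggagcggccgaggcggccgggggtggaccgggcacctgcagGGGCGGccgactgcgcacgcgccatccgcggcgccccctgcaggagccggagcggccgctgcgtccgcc
ABCF1, chr6:30571192-30571441, plus strand: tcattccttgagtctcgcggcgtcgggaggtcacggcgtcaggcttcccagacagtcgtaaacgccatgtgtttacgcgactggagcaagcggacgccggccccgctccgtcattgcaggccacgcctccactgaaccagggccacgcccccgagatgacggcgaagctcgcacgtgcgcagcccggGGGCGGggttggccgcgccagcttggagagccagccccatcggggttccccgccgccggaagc
ABCA1, chr9:104928156-104928405, minus strand: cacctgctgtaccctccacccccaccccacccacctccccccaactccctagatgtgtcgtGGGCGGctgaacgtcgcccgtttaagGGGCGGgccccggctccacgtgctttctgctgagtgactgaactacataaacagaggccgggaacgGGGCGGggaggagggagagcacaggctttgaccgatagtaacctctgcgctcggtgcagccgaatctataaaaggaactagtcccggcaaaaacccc
ABCG4, chr11:119148802-119149051, plus strand: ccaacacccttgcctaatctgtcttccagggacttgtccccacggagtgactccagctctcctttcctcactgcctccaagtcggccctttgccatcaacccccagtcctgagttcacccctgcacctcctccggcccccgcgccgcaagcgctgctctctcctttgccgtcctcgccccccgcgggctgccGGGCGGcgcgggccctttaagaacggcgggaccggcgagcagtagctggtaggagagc
ABCC2, chr10:99782390-99782639, plus strand: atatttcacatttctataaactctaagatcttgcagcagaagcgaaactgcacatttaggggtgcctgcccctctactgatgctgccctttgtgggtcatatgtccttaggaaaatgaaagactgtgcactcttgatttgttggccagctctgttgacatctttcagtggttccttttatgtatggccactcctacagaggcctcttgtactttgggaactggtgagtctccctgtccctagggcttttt
The windows of ABCA5 and ABCA3 were both 79.2% G and C and that of ABCF1 69.6%, and each held 1 box. Among the genes called up, the window of ABCA1 was 61.6% G and C with 3 boxes, the one printed for ABCG4 66.8% with 1 box, and that of ABCC2 45.6% with 0. A second start of ABCG4 had a window of 74.8% G and C with 2 boxes. The median G and C share was 58.0% over the windows of all genes and 66.4% over those of the tested ABC genes. In the windows of ABC genes called in no comparison the median was 65.0% and the highest 85.6%. Whether the G and C share goes with the direction of change was not tested. Of 35116 windows of the same length from all genes, 42.6% held the box, as did 46.2% of the 52 windows matched to 34 of the 44 ABC genes. The share was 65.5% in the 29 of these that belong to 22 genes that passed the expression filter. Of the genes called at 80 nM, ABCA5, ABCA3, ABCF1, ABCA1 and ABCG4 held it and ABCC2 did not. No window was matched to ABCG1, the other gene called down. The box was also in 60% of the 20 windows of the 14 ABC genes that were called in no comparison. A match of letters is a description and does not show that a factor bound there.

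The genes that move cholesterol out of the cell did not move together. ABCA1, which loads cholesterol and phospholipid onto lipid-poor apolipoproteins, rose at both doses, ABCG4, a sterol transporter best known from the brain, rose at both doses, and ABCG1, which passes cholesterol to mature lipoprotein particles, fell at 80 nM. ABCA1 (NM_005502) read -2.18, -2.11 and -2.00 in untreated cells, -1.46, -1.61 and -1.19 at 8 nM, and -0.83, -0.82 and -0.72 at 80 nM. The 3 groups did not overlap, and each dose stood above the one before it. The log2 change was 0.67 (SE 0.11, 1.60-fold, adjusted p = 0.0065) at 8 nM and 1.31 (SE 0.11, 2.47-fold, adjusted p = 2.5e-05) at 80 nM. The cells at 80 nM were 0.63 (SE 0.11, adjusted p = 0.0015) above those at 8 nM. A second, dimmer probe of the same transcript gave 0.08 (SE 0.24) at 8 nM and 0.62 (SE 0.24) at 80 nM, so the rise at 8 nM rests on 1 of its 2 probes. Without the third 8 nM array the change at 8 nM was 0.56, below the fold limit, as it was with normexp correction (0.50), in the authors' values (0.55) and with the mean of both probes (0.37, adjusted p = 0.15). The call between the doses was lost with spike-in scaling (0.28, adjusted p = 0.47), median scaling (0.52), normexp correction (0.54) and in the authors' values (0.56).

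ABCG4 (NM_022169) read -5.03, -4.97 and -4.79 in untreated cells, -3.37, -3.42 and -3.29 at 8 nM, and -4.02, -3.84 and -3.93 at 80 nM. Here the groups did not overlap either, and the order differed from that of ABCA1, since the 8 nM arrays stood highest. The change was 1.57 (SE 0.09, 2.97-fold, adjusted p = 5e-05) at 8 nM and 1.00 (SE 0.09, 2.00-fold, adjusted p = 3.1e-05) at 80 nM. The level at 80 nM was 0.57 (SE 0.09) lower than at 8 nM, a fold of 0.673 that missed the limit of 0.67 with an adjusted p of 0.00075. That difference was called with quantile normalization (-0.64), median scaling (-0.68) and spike-in scaling (-0.93), and was -0.25 with normexp correction. This probe was dim in all groups, and with normexp background correction, which leaves an offset on dim spots, the changes were 0.78 and 0.52 at the 2 doses, and the call at 80 nM was lost.

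ABCG1 (NM_207627) read -4.61, -4.44 and -4.34 in untreated cells, -4.38, -4.41 and -4.07 at 8 nM, and -6.42, -6.21 and -7.08 at 80 nM. At 80 nM the probe was not well above background on any of its 3 arrays, while it was on all 6 others. Set against the lowest flagged level, it was at least 2.84-fold lower at 80 nM than in untreated cells (adjusted p = 6.7e-05). Against 8 nM it was at least 3.21-fold lower. These bounds hold only for the intensities as measured. The size of the change depended on the background correction, with -2.11 as measured, -0.82 in the authors' values and -0.49 with normexp correction. The call was lost with normexp correction. At 8 nM it differed from untreated cells by 0.18 (SE 0.21, adjusted p = 0.60), with overlapping arrays.

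**Figure D2:**
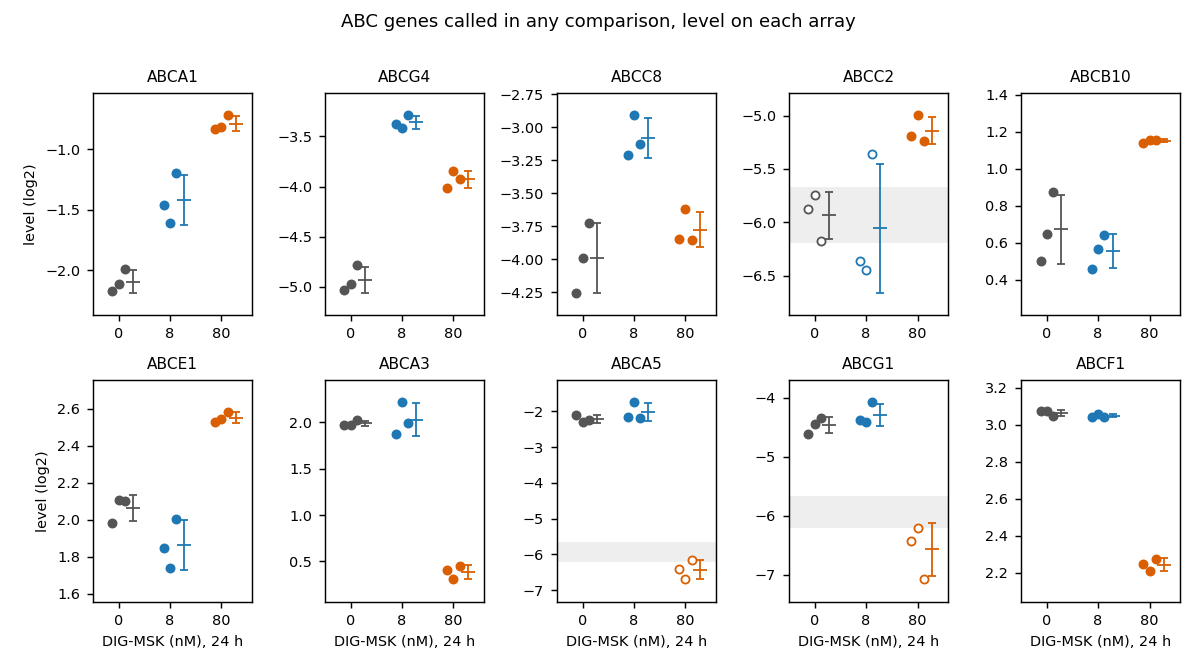
Level on each array (vertical axis, log2 relative to the array's 75th percentile; each panel has its own range) against the dose of DIG-MSK for the 10 ABC genes called in any comparison. Each point is 1 array, the bar beside it the mean ± SD (n = 3), open points mark groups in which not all 3 arrays were well above background, and the grey band is the lowest level flagged as well above background on the 9 arrays. ABCA5 and ABCG1 lie at or below that band at 80 nM, and ABCG4 and ABCC8 stand highest at 8 nM.

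The largest fall among the tested ABC genes was that of ABCA5, a transporter of late endosomes and lysosomes linked to cholesterol handling. ABCA5 (NM_018672) read -2.09, -2.29 and -2.23 in untreated cells, -2.17, -1.74 and -2.18 at 8 nM, and -6.41, -6.70 and -6.17 at 80 nM. The untreated and 8 nM arrays overlapped, and all 3 arrays at 80 nM lay far below them and not well above background. Set against the lowest flagged level, ABCA5 was at least 13.6-fold lower at 80 nM than in untreated cells (adjusted p = 3.4e-07). Against 8 nM it was at least 15.4-fold lower. These bounds hold only for the intensities as measured. The log2 change as measured was -4.22, and it was -2.30 in the authors' values, which track the median signal without background subtraction, and -1.69 with normexp correction. ABCA9 and ABCA10, which belong to the same cluster of genes as ABCA5, moved by -0.41 (SE 0.11, adjusted p = 0.013) and 0.48 (SE 0.17, adjusted p = 0.039) at 80 nM, both within the fold limits. ABCA6 and ABCA8 of that cluster were never above background.

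ABCA3, which carries phospholipids into lamellar bodies and has also been linked to drug storage in lysosomes, fell at 80 nM and not at 8 nM. ABCA3 (NM_001089) read 1.97, 1.97 and 2.02 in untreated cells, 1.88, 2.22 and 1.99 at 8 nM, and 0.41, 0.31 and 0.45 at 80 nM. The first 2 groups overlapped, and the third lay well below both on arrays where the probe was bright. The change was -1.60 (SE 0.09, 3.03-fold lower, adjusted p = 3.4e-06) at 80 nM and 0.04 (SE 0.09, adjusted p = 0.79) at 8 nM. Of the other lipid transporters ABCA2, found in endosomes and lysosomes, was 0.42 (SE 0.08, adjusted p = 0.0024) higher at 80 nM, within the fold limit, and a second dim probe gave 0.83. ABCA7, a relative of ABCA1, differed by -0.09 and -0.05 at the 2 doses, with 95% intervals of -0.35 to 0.18 and -0.32 to 0.21.

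The genes that sense sterols and accept lipid around these transporters were read from a list of 11, all of them tested. At 8 nM, where 7.09% of all genes were called, 0 were up-regulated and 1 down-regulated, RXRA, a nuclear receptor that pairs with the oxysterol receptors to switch on ABCA1 and ABCG1. RXRA read 2.29, 2.10 and 2.05 in untreated cells, 1.24, 1.40 and 1.24 at 8 nM, and 0.54, 0.61 and 0.65 at 80 nM. Its groups did not overlap, and it stepped down with dose, by 0.85 (SE 0.09, adjusted p = 0.00082) at 8 nM and by 1.55 (SE 0.09, adjusted p = 2.7e-06) at 80 nM, where ABCA1 stepped up. At 80 nM 5 of the 11 were called, 3 up and 2 down, beside the 35.1% of all genes (18.8% up and 16.3% down). Those up-regulated were APOE, a lipid acceptor, at 0.94 (SE 0.10, adjusted p = 0.0001), APOA1, the classic acceptor for ABCA1, at 0.72 (SE 0.16, adjusted p = 0.0056), and SREBF2, the regulator of cholesterol synthesis, at 0.94 (SE 0.07, adjusted p = 1.5e-05). The call of APOA1 was lost with spike-in scaling (0.44) and with normexp correction (0.42). Besides RXRA, SREBF1, the regulator of fatty acid synthesis, was down-regulated, at -0.87 (SE 0.11, adjusted p = 0.00025). The oxysterol receptor genes were not called against untreated cells: NR1H2 differed by 0.56 (SE 0.11) and NR1H3 by 0.00 (SE 0.09) at 80 nM.

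The drug efflux genes split into 5 that were measured and 5 that were not. ABCC1, ABCC4, ABCC5 and ABCC10, which pump organic anions, drug conjugates or nucleotide analogues, were above background on all 9 arrays. ABCC2, a pump of the apical membrane, was measured on all 3 arrays only at 80 nM. ABCB1 (P-glycoprotein, the best known multidrug pump), ABCB5, ABCC3 and ABCC11 were above background on 0 of 9 arrays. ABCG2, the breast cancer resistance protein, was above background on 2 of 3 untreated arrays and on none of the treated ones. At 8 nM 0 of the 5 tested were called, beside 7.09% of all genes. In limma at unadjusted p under 0.05, 1 was higher and 1 lower, beside 14.5% and 16.3% of all genes. At 80 nM, where 35.1% of all genes were called, 1 of the 5 was called up, ABCC2, and 0 down. Since ABCC2 was tested only because its 80 nM arrays were above background, that call is a description, and of the 4 measured on all 9 arrays 0 were called.

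ABCC2 (NM_000392) read -5.88, -5.75 and -6.18 in untreated cells, -6.36, -6.45 and -5.36 at 8 nM, and -5.19, -5.00 and -5.24 at 80 nM. The 80 nM arrays stood above all others, but at levels near the limit of detection, and only 1 of 3 untreated arrays and 0 of 3 at 8 nM were well above background. The difference at 80 nM, given as a description for the reason above, was 0.79 (SE 0.27, 1.73-fold, adjusted p = 0.033) against untreated cells, and against 8 nM, where only a bound can be given, at least 1.48-fold (adjusted p = 0.019). The call against untreated cells was lost with normexp correction (0.25), in the authors' values (0.29) and with spike-in scaling (0.51, adjusted p = 0.31), and the adjusted p was 0.1 without the third untreated array and 0.09 without the second 80 nM array.

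ABCC1 (NM_019862), the first multidrug resistance protein of its family, was lowest at 8 nM. Its levels were -0.98, -0.79 and -0.66 in untreated cells, -1.13, -1.13 and -1.11 at 8 nM, and -0.63, -0.60 and -0.67 at 80 nM. The 8 nM arrays lay below all others, while the untreated and 80 nM arrays overlapped. It was 0.32 lower at 8 nM (log2 change -0.32, SE 0.09, adjusted p = 0.047) and differed by 0.18 (SE 0.09, adjusted p = 0.11) at 80 nM, a value that was -0.10 with spike-in scaling. At 8 nM the change lay between -0.40 and -0.24 under all settings tried. Its adjusted p in limma was 0.17 with median scaling, 0.078 with the replicate block and 0.89 with spike-in scaling. It was 0.041 with quantile normalization, 0.046 with normexp correction and 0.032 in the authors' values. The 80 nM cells were 0.49 (SE 0.09, adjusted p = 0.0015) above the 8 nM cells, a difference of 0.13 (adjusted p = 0.71) with spike-in scaling. All 3 changes were smaller than the fold limit.

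ABCC10 (NM_033450) read -1.38, -1.48 and -1.24 in untreated cells, -1.16, -1.11 and -1.05 at 8 nM, and -0.90, -0.86 and -0.95 at 80 nM. The groups did not overlap and lay in the order of dose, above untreated cells by 0.26 (SE 0.08, adjusted p = 0.064) and 0.47 (SE 0.08, adjusted p = 0.0012), below the fold limit at both doses. A second probe gave 0.62 (SE 0.15) at 80 nM, above the limit, while with spike-in scaling the brightest probe gave 0.19 (adjusted p = 0.57) there and -0.15 between the doses. ABCC5 (NM_005688), which exports cyclic nucleotides and nucleotide analogues, read 1.29, 1.17 and 1.27 in untreated cells, 1.08, 1.51 and 1.19 at 8 nM, and 0.73, 0.81 and 0.89 at 80 nM. Its 80 nM arrays lay below all others, with a change of -0.44 (SE 0.11, adjusted p = 0.01), also within the fold limit, and its 2 other probes gave -0.26 and -0.36. With spike-in scaling it was called down, at -0.72 (adjusted p = 0.013) against untreated cells and -0.81 against 8 nM. The study's supplement lists ABCC5 in a network drawn from genes down-regulated at 80 nM alone, unlike the call here. ABCC4 (NM_005845), an exporter of cyclic nucleotides and prostaglandins, differed by -0.46 (SE 0.22, adjusted p = 0.20) at 8 nM and -0.26 (SE 0.22, adjusted p = 0.35) at 80 nM. Its 8 nM arrays read -3.00, -3.82 and -2.94, so 1 array was low, and without it the change was -0.18, while without either of the other 2 the gene was called down at up to -0.62.

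**Figure D3:**
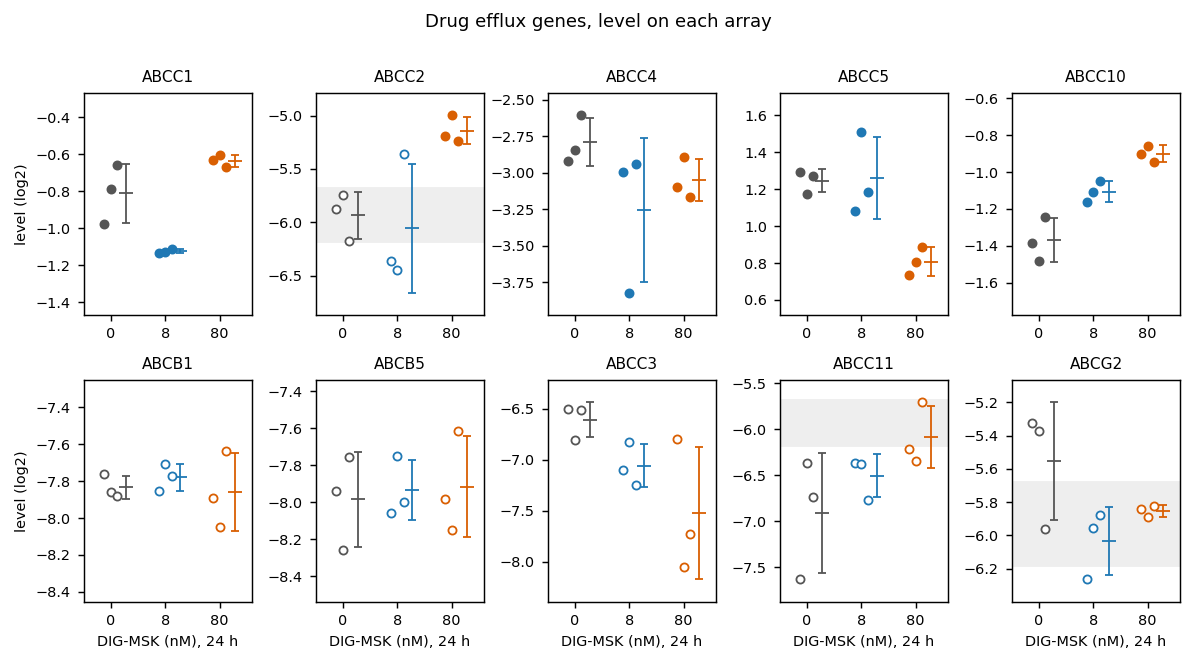
Level on each array (vertical axis, log2 relative to the array's 75th percentile; each panel has its own range) against the dose of DIG-MSK for the 10 drug efflux genes, the 5 tested in the upper row and the 5 that did not pass the filter below, each by its brightest probe. Points are arrays, bars the mean ± SD (n = 3), open points mark groups in which not all 3 arrays were well above background, and the grey band is the lowest level flagged as well above background. The levels of ABCB1 lie between -8.05 and -7.64 on all 9 arrays.

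Of 6 genes that sense drugs or regulate such pumps 3 passed the filter. MVP, the major vault protein, which has been linked to multidrug resistance, was up-regulated at 8 nM by 1.01 (SE 0.07, adjusted p = 0.00014) and was 0.44 (SE 0.07, adjusted p = 0.00096) higher at 80 nM, within the fold limit. YBX1, a DNA- and RNA-binding protein linked to the control of ABCB1, was down-regulated at 80 nM, at -0.58 (SE 0.09, adjusted p = 0.00096), a call that was lost with quantile normalization at -0.55. NR1I3, a xenobiotic receptor, was above background on 3 of 3 untreated arrays, 0 of 3 at 8 nM and 1 of 3 at 80 nM. The filter kept it only through the untreated arrays, so its difference is a description. At 8 nM it was at least 1.41-fold lower, with -0.68 as measured (SE 0.30, adjusted p = 0.17).

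Among the organelle genes 8 of 9 were tested and 0 were called at 8 nM or 80 nM against untreated cells, beside 7.09% and 35.1% of all genes. At unadjusted p under 0.05 in limma, 1 was higher and 1 lower at 8 nM, beside 14.5% and 16.3% of all genes. At 80 nM 3 were higher and 3 lower, where 35.8% of all genes were higher and 27.6% lower by this measure. ABCD3, a peroxisomal carrier of branched-chain fatty acids and bile acid precursors, was lower at 8 nM only, at -0.45 (SE 0.11, adjusted p = 0.027) and 0.02 (SE 0.11) at 80 nM, and at 80 nM its second probe gave -0.41. ABCD4, which works with LMBRD1 in the release of vitamin B12 from lysosomes, was lower at 80 nM at -0.42 (SE 0.12, adjusted p = 0.015), as was LMBRD1 at -0.41 (SE 0.11, adjusted p = 0.011), both within the fold limit. Of 8 partner genes of these transporters 6 were tested, of which 0 were called at 8 nM and 2 at 80 nM, beside 7.09% and 35.1% of all genes. At 80 nM PEX3, which inserts proteins into the peroxisomal membrane, was up-regulated at 1.03 (SE 0.15, adjusted p = 0.00055), and MMACHC, which processes vitamin B12, was down-regulated at -0.60 (SE 0.07, adjusted p = 0.00011), a call lost with normexp correction at -0.47.

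Of the mitochondrial members, ABCB10, a transporter of the inner membrane that supports haem synthesis, read 0.50, 0.64 and 0.87 in untreated cells, 0.46, 0.57 and 0.64 at 8 nM, and 1.14, 1.16 and 1.16 at 80 nM. The 80 nM arrays lay above the overlapping others, and ABCB10 was called up against 8 nM at 0.60 (SE 0.10, 1.51-fold, adjusted p = 0.0012) and stayed below the limit against untreated cells at 0.48 (SE 0.10, adjusted p = 0.0037). A second probe of ABCB10 gave 0.67 (SE 0.15) against untreated cells, above the limit, and 0.88 against 8 nM. With spike-in scaling the difference from 8 nM was 0.24, with median scaling 0.48 and with quantile normalization 0.56, and the call was lost in each. ABCB9, a lysosomal peptide transporter, was 0.43 (SE 0.09, adjusted p = 0.0035) higher at 80 nM. The related peptide transporter genes TAP1 and TAP2, which carry other symbols and are not among the 44, differed by -1.72 (SE 0.27, adjusted p = 0.00074), a call, and by -0.46 (SE 0.12, adjusted p = 0.013) at 80 nM.

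Of the soluble ATPases, ABCF1, which joins eIF2 in the initiation of translation, fell at 80 nM, and ABCE1, which splits ribosomes for recycling, was higher there. ABCF1 (NM_001025091) read 3.07, 3.07 and 3.05 in untreated cells, 3.04, 3.06 and 3.04 at 8 nM, and 2.25, 2.21 and 2.27 at 80 nM. The untreated and 8 nM arrays overlapped within a narrow range, and the 80 nM arrays lay apart from both. The change at 80 nM was -0.82 (SE 0.06, 1.77-fold lower, adjusted p = 9.1e-06), and under all settings tried it lay between -1.10 and -0.79. ABCE1 (NM_002940) read 1.98, 2.11 and 2.10 in untreated cells, 1.85, 1.74 and 2.00 at 8 nM, and 2.53, 2.54 and 2.58 at 80 nM. Its 80 nM arrays lay above the others, which overlapped, and it was called up against 8 nM at 0.69 (SE 0.08, 1.61-fold, adjusted p = 0.00021) but stayed below the fold limit against untreated cells at 0.49 (SE 0.08, adjusted p = 0.0013). Its second probe gave 0.36 against 8 nM, and the call was also lost with spike-in scaling (0.33, adjusted p = 0.35) and median scaling (0.58). ABCF3 differed by -0.01 (SE 0.08) at 8 nM and -0.11 (SE 0.08, adjusted p = 0.25) at 80 nM. The probe of ABCF2 is listed under the read-through gene ABCF2-H2BK1, outside the 44, and differed by 0.03 (SE 0.07) at 8 nM and by 0.37 (SE 0.07, adjusted p = 0.0019) at 80 nM.

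ABCC8, the sulphonylurea receptor that regulates potassium channels, was called up at 8 nM alone. ABCC8 (NM_000352) read -4.25, -3.99 and -3.72 in untreated cells, -3.21, -2.91 and -3.12 at 8 nM, and -3.85, -3.62 and -3.85 at 80 nM. The 8 nM arrays lay above all others, and the untreated and 80 nM arrays overlapped. The change was 0.91 (SE 0.14, 1.88-fold, adjusted p = 0.0058) at 8 nM and 0.21 (SE 0.14, adjusted p = 0.24) at 80 nM, and the difference between the doses was itself called, at -0.70 (SE 0.14, adjusted p = 0.0037). With normexp correction and in the authors' values the change at 8 nM was 0.42 and 0.54, and the difference between the doses -0.30 and -0.43, all short of the fold limit. The channel subunit genes it joins, KCNJ8 and KCNJ11, did not pass the filter.

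ABCC6, an organic anion transporter of the liver whose loss leads to soft tissue calcification, was singled out after its values were seen, because its 4 probes gave different sizes of change. Its brightest probe, on the short transcript NM_001079528, differed by -0.01 (SE 0.08) at 8 nM and by 0.25 (SE 0.08, adjusted p = 0.028) at 80 nM, and was not called. The probe on NM_001171 read -1.10, -1.17 and -1.01 in untreated cells, -0.61, -0.58 and -0.57 at 8 nM, and 0.07, 0.04 and 0.02 at 80 nM. These groups did not overlap, and they stood 0.50 (SE 0.07) and 1.14 (SE 0.07) above the untreated cells. The 2 other probes of the short transcript gave -0.08 and 0.02 at 8 nM and 0.75 and 0.38 at 80 nM. All 4 were higher at 80 nM. ABCC6 has near-identical pseudogene copies, so which transcripts each probe reads is uncertain. With the mean of a gene's probes in place of the brightest, ABCC6 and ABCA2 joined the genes called up at 80 nM, 5 in all.

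**Figure D4:**
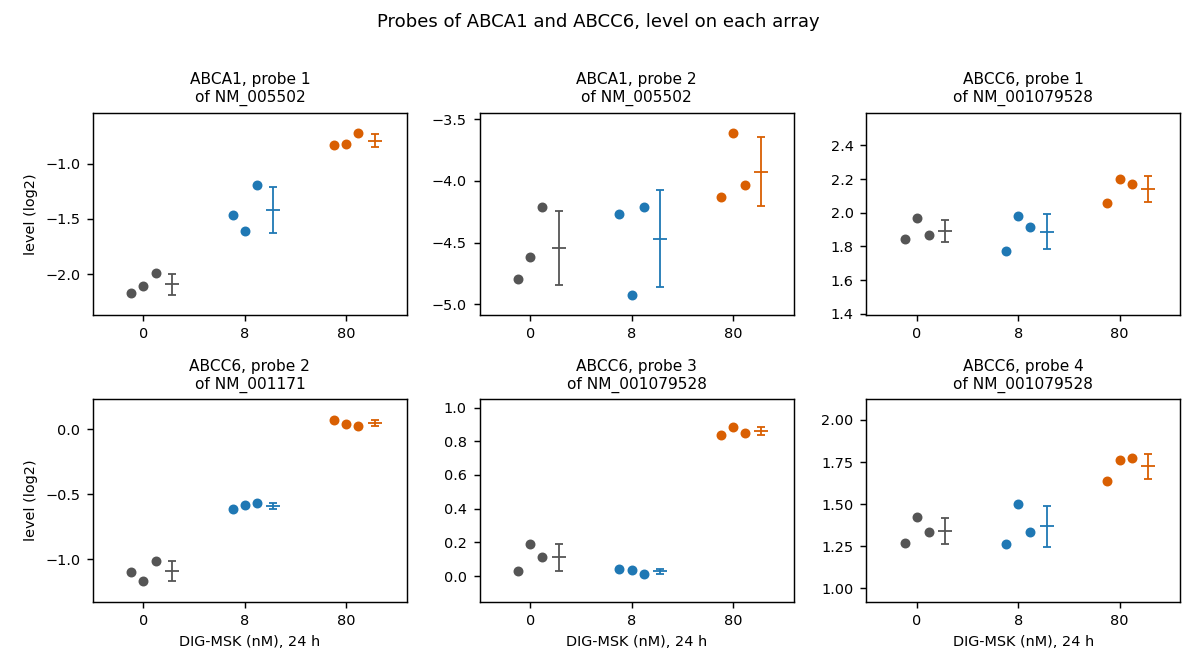
Level on each array (vertical axis, log2 relative to the array's 75th percentile; each panel has its own range) against the dose of DIG-MSK for the 2 probes of ABCA1 and the 4 probes of ABCC6 that passed the filter, each titled with its RefSeq transcript. Points are arrays and bars the mean ± SD (n = 3). At 8 nM ABCA1 is higher by its first probe and not by its second, and the ABCC6 probe on NM_001171 shows the widest steps, to 0.05 at 80 nM from -1.09 in untreated cells.

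The comparison of the 2 doses with each other, which shares its 8 nM and 80 nM arrays with the comparisons above, called 4 ABC genes higher at 80 nM (ABCA1, ABCB10, ABCC2 and ABCE1) and 5 lower (ABCA3, ABCA5, ABCC8, ABCF1 and ABCG1), 33.3% of those tested beside 33.6% of all genes (19.5% higher and 14.2% lower). The filter kept ABCC2 only through the 80 nM arrays, where it stood highest, and ABCA5 and ABCG1 only through the other groups. Their place in these counts, and in those under the other scalings below, is therefore a description. Where a probe had to be well above background on every array, these genes were removed and 3 were called lower. The balance of higher and lower calls depended on the scaling. Scaling to the spike-in probes moved the median change of all genes from 0.12 to -0.24 between the doses and from 0.08 to -0.20 between 80 nM and untreated cells. It gave 0 ABC genes higher and 11 lower between the doses, and 2 up and 8 down against untreated cells, where scaling to the 75th percentile gave 3 and 4. Scaling to the median of each array gave 1 higher and 8 lower between the doses. The share of all genes called was not counted under these other scalings. Their ABC counts therefore cannot be set apart from the shift of the array as a whole. ABCA3, ABCA5, ABCF1 and ABCG1 were called down at 80 nM, and ABCA1 and ABCG4 up, under each of these scalings.

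Of the 44 ABC genes 17 were not tested, and for 14 of them no probe was well above background on any array. These were ABCA4, ABCA6, ABCA8, ABCA12, ABCA13, ABCB1, ABCB4, ABCB5, ABCB11, ABCC3, ABCC9, ABCC11, ABCC12 and ABCG8, among them transporters of bile salts, skin lipids and retinoids with known roles in other tissues. The other 3 were flagged on some arrays, ABCG2 on 2 untreated arrays, ABCG5 on 1 untreated array and ABCD2 on 2 arrays at 80 nM. For the 14 genes never above background a change was not detectable at this signal, which does not show that there was none. The other 3 were near the limit of detection, and the levels of ABCD2 are given below. Among the 10 tested genes with several usable probes, the probes differed in sign in 5 genes at 8 nM and in 2 at 80 nM.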

How the data were processed

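RNA from 9 cultures (3 untreated, 3 at 8 nM and 3 at 80 nM DIG-MSK, grouped by the sample labels) was hybridised to one-colour arrays. The authors extracted spots with Agilent Feature Extraction 10.7.3.1, and the deposited processed intensity is background-corrected but not scaled between arrays. The authors' table of log2 values tracks the log2 median signal without background subtraction (correlations of 0.99856 to 0.99981), has nearly equal quantiles on all arrays and served as an alternative. The study's methods name a background subtraction and a lowess step in the extraction software, and which values those steps produced is not given in the sources used here. The number of arrays limits the precision of every value.

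Outlier spots and control spots were left out, spots of a probe averaged, and log2 intensities scaled to the 75th percentile of each array. A probe entered if every array in some group flagged it as well above background (26457 probes), and the brightest one stood for its gene (21832 genes). Probe names came from RefSeq accessions, of which 25715 of 27245 matched the gene table. Where no symbol was matched the accession stood for the gene, so the counts of all genes include such entries. limma 3.58.1 in R 4.3.3 fitted all 9 arrays without covariates (lmFit, eBayes). The call rule, a fold of at least 1.5 or at most 0.67 with p under 0.05, is that of the study's methods, and Benjamini-Hochberg values are given beside it. The named genes were the tested drug efflux genes and all ABC genes called in any comparison. A bound ("at least N-fold") set the brighter group's mean against the lowest level among probes well above background (spots of a probe averaged first), or the dim probe's own if higher. Such a bound holds only for the deposited processed intensities. It is no minimum under normexp correction or in the authors' values. Promoter windows are from RefSeq (GRCh38.p14). The deposited files hold no mean spot signal, so normexp (offset 50) used the median signal. The scripts were tested on simulated data. The values of 2 tested genes are not reported here, though they are in the counts. The members and lists were chosen with earlier results of these data known.

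The deviations of same-numbered untreated and 8 nM arrays correlated at 0.11, 0.10 and 0.16 over genes, and those of unlike number between -0.12 and -0.003. Same-numbered 80 nM arrays gave -0.01, -0.08 and -0.00 with the untreated arrays. Some unlike-numbered arrays reached a similar size, such as 0.12 and 0.13 between 8 nM and 80 nM arrays. This check therefore does not settle whether the numbers in the labels mark pairs. The slides of the untreated and 8 nM arrays and of the 80 nM arrays differ in the accessions of 2196 probes, of which 0 are ABC probes.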

Additional observations from a re-analysis of the deposited data

Results flagged for a closer look

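ABCD2, a peroxisomal fatty acid transporter gene that did not pass the filter, was well above background on 2 of 3 arrays at 80 nM, at a level of -5.20 (log2 relative to the array's 75th percentile), and on 0 of 3 untreated and 0 of 3 arrays at 8 nM. Its levels were -5.20, -5.20 and -5.21 at 80 nM, -5.78, -7.04 and -6.68 in untreated cells, and -7.98, -7.73 and -7.50 at 8 nM. It drew attention as a signal outside the tested genes that was above background in treated cells only, and it is near the limit of detection.

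A probe of ABCC13, a gene with non-coding transcripts and therefore outside the 44, was well above background on 1 of 3 arrays at 8 nM, at a level of -4.90, and on none of the other 8 arrays, where it lay between -8.13 and -7.19. It was noted for the same reason. The signal came from 1 array only, and a second probe of ABCC13 was above background on none.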

How the results depend on the processing

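Limits: with 3 arrays per group and the 80 nM arrays on a slide of their own, the effect of 80 nM cannot be told apart from that of the slide, and dim probes carry changes whose size depends on the background correction. Normexp correction adds an offset and the authors' values track the signal without background subtraction, and the changes of the dim genes ABCA5, ABCC2, ABCC8, ABCG1 and ABCG4 at 80 nM were smaller in both. ABCA3, ABCA5 and ABCF1 were called down and ABCA1 up at 80 nM under every setting tried in which they were tested; the filter on all 9 arrays removed ABCA5, ABCG1 and ABCC2.

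At 8 nM, 1 gene was called up with normexp correction and 1 in the authors' values (ABCG4 in both), against 3, and 1 was called down with no filter on dim probes (ABCD2), against 0. At 80 nM, up calls numbered 1 with normexp correction (ABCA1), 6 with no filter and 5 with the mean of a gene's probes, against 3, and down calls 8 with spike-in scaling and 2 with the filter on all 9 arrays, against 4. Between the doses, higher calls numbered 2 with normexp correction, 1 with median scaling, 0 with spike-in scaling and 2 in the authors' values, against 4, and lower calls 3 with normexp correction, 8 with median scaling, 11 with spike-in scaling and 3 with the filter on all 9 arrays, against 5. Leaving out 1 array at a time gave 2 to 4 up and 0 to 1 down at 8 nM, 3 to 4 up and 4 to 4 down at 80 nM, and 3 to 4 higher and 5 to 7 lower between the doses. ABCC4 was called down at 8 nM without the first or the third 8 nM array. The cause of the other moves was not tested. With the replicate number as a block, 3 ABC genes were called up and 0 down at 8 nM, both with all 9 arrays and with only the paired untreated and 8 nM arrays (an alternative chosen after seeing the data), and the block changed no other call.

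Among the named genes, the directions that turned were of changes not called. With spike-in scaling they were those of ABCC1 (-0.10) and ABCC8 (-0.067) at 80 nM and of ABCC4 (-0.15) and ABCC10 (-0.15) between the doses. At 8 nM, ABCF1 gave 0.018 with normexp correction, 0.062 with quantile normalization, 0.036 with median scaling, 0.061 with spike-in scaling and 0.082 in the authors' values, ABCC2 gave 0.0077 with quantile normalization, and another probe gave -0.11 for ABCC5 and 0.047 for ABCE1. Leaving out 1 array gave ranges of -0.052 to 0.12 for ABCA3, -0.47 to 0.072 for ABCC2 and -0.11 to 0.10 for ABCC5 at 8 nM, and -0.081 to 0.36 for ABCC4 between the doses. In members outside the named genes, probes of 1 gene gave opposite signs for ABCB8 (-0.29 and 0.26) and ABCD3 (-0.41 and 0.02) at 80 nM and for ABCA2 (-0.41 and 0.17) at 8 nM.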
